A study of Mus musculus with 6 samples.

Results

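The genes described here are 37 genes of the unfolded protein response and of the early secretory pathway, compared in the prostates of wildtype mice and of mice carrying 1 or 2 Trp53 R270H alleles. They were chosen by symbol from a list of endoplasmic reticulum chaperones, stress sensors, translocon subunits and signal peptidase subunits, and all 37 were found among the 47719 gene identifiers, each under a single identifier. Levels were FPKM, fragments scaled by transcript length and by the number of mapped fragments, so that levels of different genes can be set side by side. All 37 genes reached a mean of 1 FPKM across the mice and entered the tests with 13818 genes in all. By role they comprised 11 chaperones and co-chaperones, 4 protein disulfide isomerases, 6 stress sensors and transcription factors, 3 targets of Atf4, 4 genes of endoplasmic reticulum associated degradation, 6 genes of the translocon and 3 of the signal peptidase.

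RNA was taken from the prostates of 6 mice of the strain B6.129S4-Trp53tm3.1Tyj/J, for which the labels name no Cre transgene or tissue-specific promoter. Wildtype mice 39 and 41 (Trp53+/+) carried 0 mutant alleles, heterozygous mice 37 and 40 (Trp53R270H/+) carried 1, and homozygous mice 47 and 49 (Trp53R270H/R270H) carried 2, each named by its animal number. All mice, the wildtype controls included, were about 3 months old, had received 5 Gy to the whole body and were dissected 6 h later, and no unirradiated mouse enters any comparison. The labels name no litter, cage, prostate lobe or sequencing batch. With 2 mice per genotype the p-values rest only on the spread between these few animals, moderated by that of other genes at similar levels.

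The unfolded protein response matches the folding capacity of the endoplasmic reticulum to its load of new secretory and membrane proteins. The membrane proteins encoded by Ern1, Eif2ak3 and Atf6 sense unfolded protein in its lumen. Activated Ern1 splices the mRNA of the transcription factor Xbp1, Eif2ak3 slows translation and thereby favours the synthesis of Atf4, and Atf6 is cut to release a transcription factor that acts on chaperone genes. Luminal cells of the prostate are secretory cells and keep an extensive endoplasmic reticulum.

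The samples differed in more than genotype. Homozygous mouse 47 stood apart for some markers. Its FPKM was 257 for the prostate secretory product Pbsn, against 7329 to 11512 in the other mice. For Tgm4, a transglutaminase of prostate secretions, it was 131, against 3180 to 9060. Of 10 tested secretory products, 6 were lower in mouse 47 than in all 4 wildtype and heterozygous mice. The same held for 4443 of all 13818 tested genes. Spink1 was not lower there, with 34822, against 11408 to 47210. Pate4, counted among the 10, had 16862, against 125 to 4895. Like the seminal vesicle product Svs1, Pate4 was lowest in wildtype mouse 39 and highest in mouse 47, so its place among the prostate products is uncertain. The summed FPKM of the 10, Pate4 included, was 54508 in mouse 47 and 45267 to 86119 in the others. The seminal vesicle products Svs1 and Svs6 reached 9136 and 26147 in mouse 47, against 9.22 to 388 and 28.6 to 1021 in the other mice, while Svs4 and Svs5 were listed at 0 in mouse 47 and Svs2 in both homozygous mice. The summed FPKM of 7 seminal vesicle products was 47746 in mouse 47, 30314 in mouse 49, and 53954 and 51907 in heterozygous mice 37 and 40. This sum was 45888 in wildtype mouse 41 but only 3369 in wildtype mouse 39. The general epithelial markers Krt8, Krt18, Epcam and Cdh1 differed far less, with 134 to 189, 351 to 462, 155 to 239 and 65.1 to 94.9 over the 6 mice. The summed FPKM of 10 skeletal muscle markers was 1765 and 2597 in wildtype mice and 4903 to 6009 in the 4 mutant mice, and that of 10 plasma and B cell markers was 157 in mouse 47 and 410 to 898 in the others. The summed FPKM of the remaining lists ranged from 124 to 186 for basal epithelium, 1685 to 2741 for smooth muscle, 298 to 683 for fibroblasts, 311 to 670 for adipocytes, 24.5 to 41.9 for endothelium, 69.9 to 164 for macrophages and 2.40 to 5.02 for T cells. The number of fragments relative to mouse 39 was estimated from the spacing of low values and lay between 0.788 in mouse 47 and 1.07 in mouse 49.

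The chaperones and disulfide isomerases were lower in homozygous mice. All 15 of these folding genes had lower values in mouse 47 and in mouse 49 than in each of the 4 wildtype and heterozygous mice, with a median difference from wildtype of -0.91 on the log2(FPKM + 0.1) scale. The FPKM of these genes summed to 5378 and 5858 in wildtype, to 5311 and 4755 in heterozygous and to only 2587 and 3269 in homozygous animals. In heterozygous mice the median difference of the same 15 genes from wildtype was -0.18. The transcription factor Xbp1 and the sensor Ern1, by contrast, had differences of -0.03 and -0.02 between homozygous and wildtype mice. None of the 37 genes reached an adjusted p under 0.05 in limma, in which values were tested as log2(FPKM + 0.1) and adjusted over all tested genes, so the differences are given with their unadjusted calls and with the share of all tested genes called the same way. In bulk tissue, fewer cells of a type and less RNA per cell cannot be told apart.

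**Figure D1:**
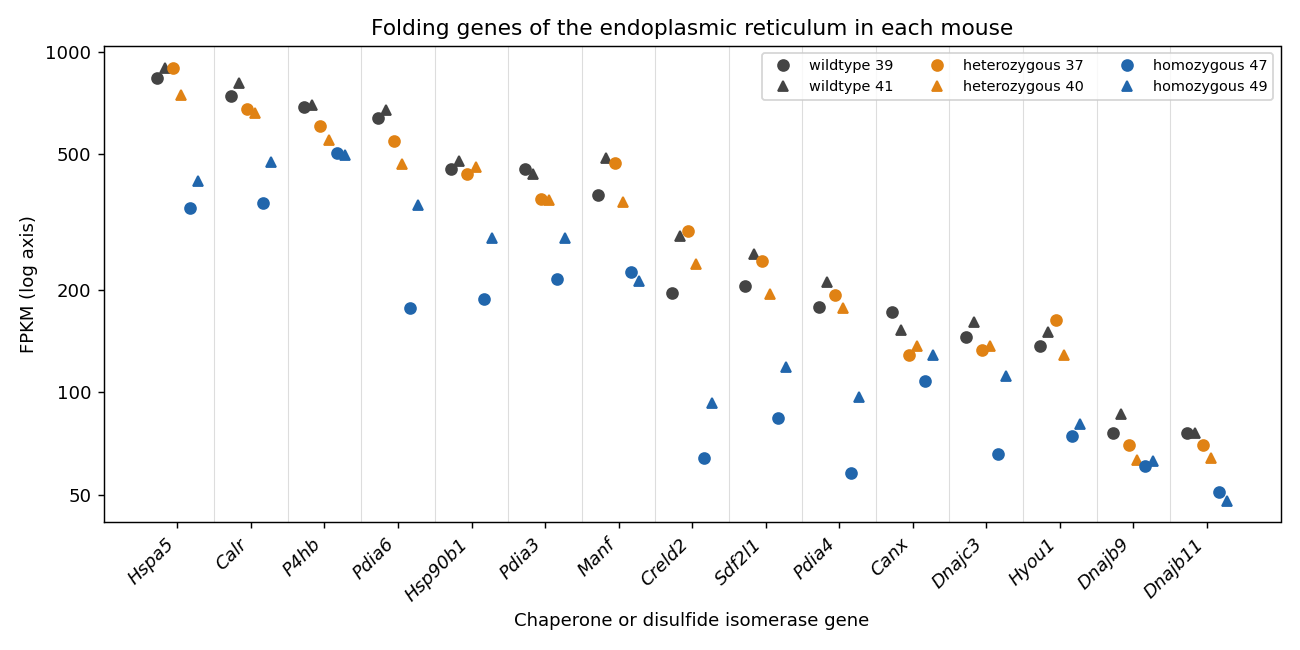
FPKM (log axis) of the 11 chaperone and 4 disulfide isomerase genes in each of the 6 mice, ordered by mean level, with 1 point per mouse and no error bars. In all 15 genes the 2 homozygous mice (blue) lie below the 4 wildtype (grey) and heterozygous (orange) mice, and the distance is widest for Creld2, Pdia4 and Pdia6.

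Of the 37 genes, 21 were lower in homozygous than in wildtype mice at an unadjusted p under 0.05, against 9.32% of all tested genes, and 0 were higher, against 8.65%. The genes lower at that threshold were all 11 chaperones and all 4 disulfide isomerases, with Eif2ak3, Syvn1, Edem1, Sec61a1, Ssr4 and Spcs3. At an adjusted p under 0.05, 0 of the 37 were called, against 0.384% of all tested genes (53 genes), and the lowest adjusted p of the 37 was 0.104 from limma, for Creld2. Both homozygous values lay below both wildtype values in 30 of the 37 genes, against 28.7% of all tested genes, and below all 4 other mice in 24, against 17%. The median log2 difference was -0.51 over the 37 genes and -0.04 over all tested genes.

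The count depended on mouse 47 and on the scale. Without mouse 47, 13 of the 37 genes were lower at an unadjusted p under 0.05, against 4.81% of all tested genes, of which 12 were folding genes, and the median difference of the folding genes was -0.71. With each mouse scaled to the mean log2 level of Krt8, Krt18, Epcam and Cdh1, a setting chosen after seeing the data that moves the median of all tested genes to 0.27, 12 of the 37 were lower, against 1.80%. Of these, 11 were folding genes, and the differences of all 15 folding genes from wildtype were below 0 under this scaling and without mouse 47. The part of the prostate secretory, seminal vesicle, plasma cell and muscle transcripts in these differences was not tested.

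Several of the folding genes carry the ER stress response element before their start. This element was searched as CCAAT, any 9 bases and CCACG on both strands of RefSeq promoters of GRCm38.p6, each holding 250 bases before and 50 after a gene's start. Promoters were matched by symbol for 31 of the 37 genes. The entries missing were those of Hyou1, Manf, Atf6, Spcs3, Ssr2 and Sec61a1. The element was present in 8 of the 31 (25.8%) and in 39 of all 32851 promoters (0.119%). The 9 matches are printed below, since they are the letters that these 8 genes share, with the fixed letters in capitals and the spacer in lower case, each 5′ to 3′ in the direction of the element.
Hspa5, chr2:34772025-34772043: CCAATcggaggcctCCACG
Calr, chr8:84847075-84847093: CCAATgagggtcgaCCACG
Hsp90b1, chr10:86705638-86705656: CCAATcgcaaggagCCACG
Hsp90b1, chr10:86705533-86705551: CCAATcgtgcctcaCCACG
Canx, chr11:50325800-50325818: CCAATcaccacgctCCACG
Pdia6, chr12:17266491-17266509: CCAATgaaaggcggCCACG
Dnajc3, chr14:118937827-118937845: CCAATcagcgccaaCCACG
Creld2, chr15:88819520-88819538: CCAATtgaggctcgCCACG
Syvn1, chr19:6046532-6046550: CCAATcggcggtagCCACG

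The elements of Calr and Creld2 and that of Hsp90b1 nearer to the start read against the direction of the gene. The elements began between 44 bases before the start, in Syvn1, and 212 bases before it, in Hsp90b1, the single gene of the 8 with a pair of matches. The 250 bases before the start of Creld2, the gene with the largest difference, lie at chr15:88819396-88819645 of GRCm38.p6 on the plus strand and show the element in its context, with its fixed letters in capitals as they read on this strand.
Creld2 upstream: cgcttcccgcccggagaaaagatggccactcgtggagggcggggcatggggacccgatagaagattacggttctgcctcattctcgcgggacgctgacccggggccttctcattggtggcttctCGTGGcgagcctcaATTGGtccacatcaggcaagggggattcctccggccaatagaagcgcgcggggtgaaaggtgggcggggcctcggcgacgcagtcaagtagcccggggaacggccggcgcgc

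The 8 genes with the element had a median log2 difference between homozygous and wildtype mice of -0.96, and all 8 were lower at an unadjusted p under 0.05. The 23 promoter-matched genes without it had a median of -0.41, and 9 of them were lower. Element and role were not separated, since all of the 8 but Syvn1 were folding genes, while most of the 23 were not. The folding genes among the 23 were Dnajb9, Dnajb11, Sdf2l1, P4hb, Pdia3 and Pdia4. Each of these was also lower at that threshold, with differences from -0.39 to -1.37. Of all 10047 tested genes with a promoter in the table, 932 were lower and 847 higher, with a median of -0.04. Pdia4 and Sdf2l1, with differences of -1.37 and -1.19, hold no match in their promoters. Among 10 other tested genes with the element the median was -0.18, with 4 lower and 1 higher. Those lower were Xlr3a, with a difference of -3.42, the degradation gene Derl3, with -1.05, Alg12, with -0.69, and Pan2, with -0.32. The 1 higher was Acacb, with 1.34. Alg12 is a mannosyltransferase gene whose promoter holds the same 19 bases of chromosome 15 as that of Creld2. A match is a description of these letters and not a binding site. The shorter ER stress response element II (ATTGG, any 1 base and CCACG, on both strands) was present in Herpud1 and Dnajb11, against 0.0365% of promoters, and the unfolded protein response element (TGACGTGG, on both strands) in 0 of the 31, against 0.676%.

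Among the chaperones, Hspa5, the main luminal chaperone and the partner that holds the stress sensors inactive, had the highest FPKM of the 37 genes in each of the 4 wildtype and heterozygous mice. Its FPKM was 839 and 897 in wildtype, 899 and 746 in heterozygous and 348 and 418 in homozygous animals. The homozygous values lay apart from the other 4, and the log2 difference from wildtype was -1.18 (standard error 0.21, adjusted p = 0.111 from limma), a level 2.27-fold lower. Against heterozygous mice it was -1.10 (standard error 0.21, adjusted p = 0.707 from limma). Hyou1, which exchanges the nucleotide of Hspa5, had an FPKM of 137 and 150 in wildtype, 163 and 129 in heterozygous and 74.7 and 81.0 in homozygous animals. The homozygous mice were close together, and the difference from wildtype was -0.88 (standard error 0.16, adjusted p = 0.114 from limma). Hsp90b1, the chaperone of the heat shock protein 90 family in the reticulum, had 452 and 477 in wildtype, 439 and 458 in heterozygous and 189 and 284 in homozygous animals, in FPKM. Its 4 wildtype and heterozygous values lay within a narrow range, and the log2 difference between homozygous and wildtype mice was -1.003 (standard error 0.23).

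Creld2, a disulfide-bond chaperone, had the largest difference of the 37 genes. Its FPKM was 196 and 288 in wildtype, 299 and 239 in heterozygous and 64.0 and 93.4 in homozygous animals. The heterozygous mice lay within or above the wildtype range, and homozygous mice differed from wildtype mice by -1.62 (standard error 0.28, adjusted p = 0.104 from limma), a level 3.07-fold lower. Against heterozygous mice it was -1.79, with an adjusted p of 0.501 from limma. Manf, a secreted protein that binds Hspa5, had an FPKM of 381 and 487 in wildtype, 473 and 361 in heterozygous and 226 and 213 in homozygous animals. Sdf2l1, a partner of the J-domain co-chaperones of Hspa5, had 205 and 255, 244 and 194, and 84.3 and 119 FPKM in the same order. For both genes the heterozygous values spanned the lower wildtype value, and the log2 differences of homozygous from wildtype mice were -0.97 for Manf and -1.19 for Sdf2l1.

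The co-chaperones of the J-domain family, which stimulate Hspa5, differed less. Dnajc3 had an FPKM of 145 and 161 in wildtype, 133 and 137 in heterozygous and 66.1 and 112 in homozygous animals. Mouse 47 was much lower than mouse 49, and the log2 difference of homozygous from wildtype mice was -0.83 (standard error 0.26). Dnajb11 had 75.9 and 76.1 in wildtype, 70.3 and 64.3 in heterozygous and 51.1 and 48.1 in homozygous animals, in FPKM. Here mouse 49 was the lowest, the values of each genotype lay close together and the difference was -0.62 (standard error 0.11, adjusted p = 0.119 from limma). Dnajb9 had 76.2 and 86.7, 70.2 and 63.4, and 60.7 and 63.0 FPKM in wildtype, heterozygous and homozygous mice. Its difference of -0.39 was the smallest of the 15 folding genes, and mouse 40 was within 1 FPKM of mouse 49.

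Calr and Canx are the lectin chaperones that hold newly glycosylated proteins. Calr had an FPKM of 743 and 808 in wildtype, 678 and 663 in heterozygous and 359 and 475 in homozygous animals. Each genotype lay below the one with fewer mutant alleles, and the log2 difference of homozygous from wildtype mice was -0.91 (standard error 0.21). Canx, the membrane-bound relative, had 172 and 152, 129 and 137, and 108 and 129 FPKM. Mouse 49 was only just below heterozygous mouse 37, and the differences from wildtype were -0.46 in homozygous and -0.28 in heterozygous mice. Without mouse 47, Canx, Dnajb9 and P4hb were the folding genes that did not pass an unadjusted p of 0.05.

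The 4 disulfide isomerases, which form and rearrange the disulfide bonds of secretory proteins, spanned the range of the chaperones. Pdia6 had an FPKM of 637 and 675 in wildtype, 546 and 468 in heterozygous and 176 and 355 in homozygous animals. Mouse 47 was about 2-fold below mouse 49, and both lay below the rest, with a log2 difference from wildtype of -1.39 (standard error 0.34, adjusted p = 0.166 from limma). Pdia4 had 179 and 210, 194 and 177, and 58.1 and 97.1 FPKM, with the heterozygous mice beside the wildtype mice. Its difference was -1.37 (standard error 0.26, adjusted p = 0.122 from limma), a level 2.58-fold lower. Pdia3, the isomerase that works with Calr and Canx, had 453 and 438, 370 and 367, and 216 and 285 FPKM. The genotypes did not overlap, and the difference from wildtype was -0.84 in homozygous and -0.27 in heterozygous mice. P4hb, the classical isomerase, had 686 and 696, 605 and 550, and 505 and 497 FPKM. The 2 mice of each genotype were close, and the difference of -0.46 was the smallest of the 4.

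**Figure D2:**
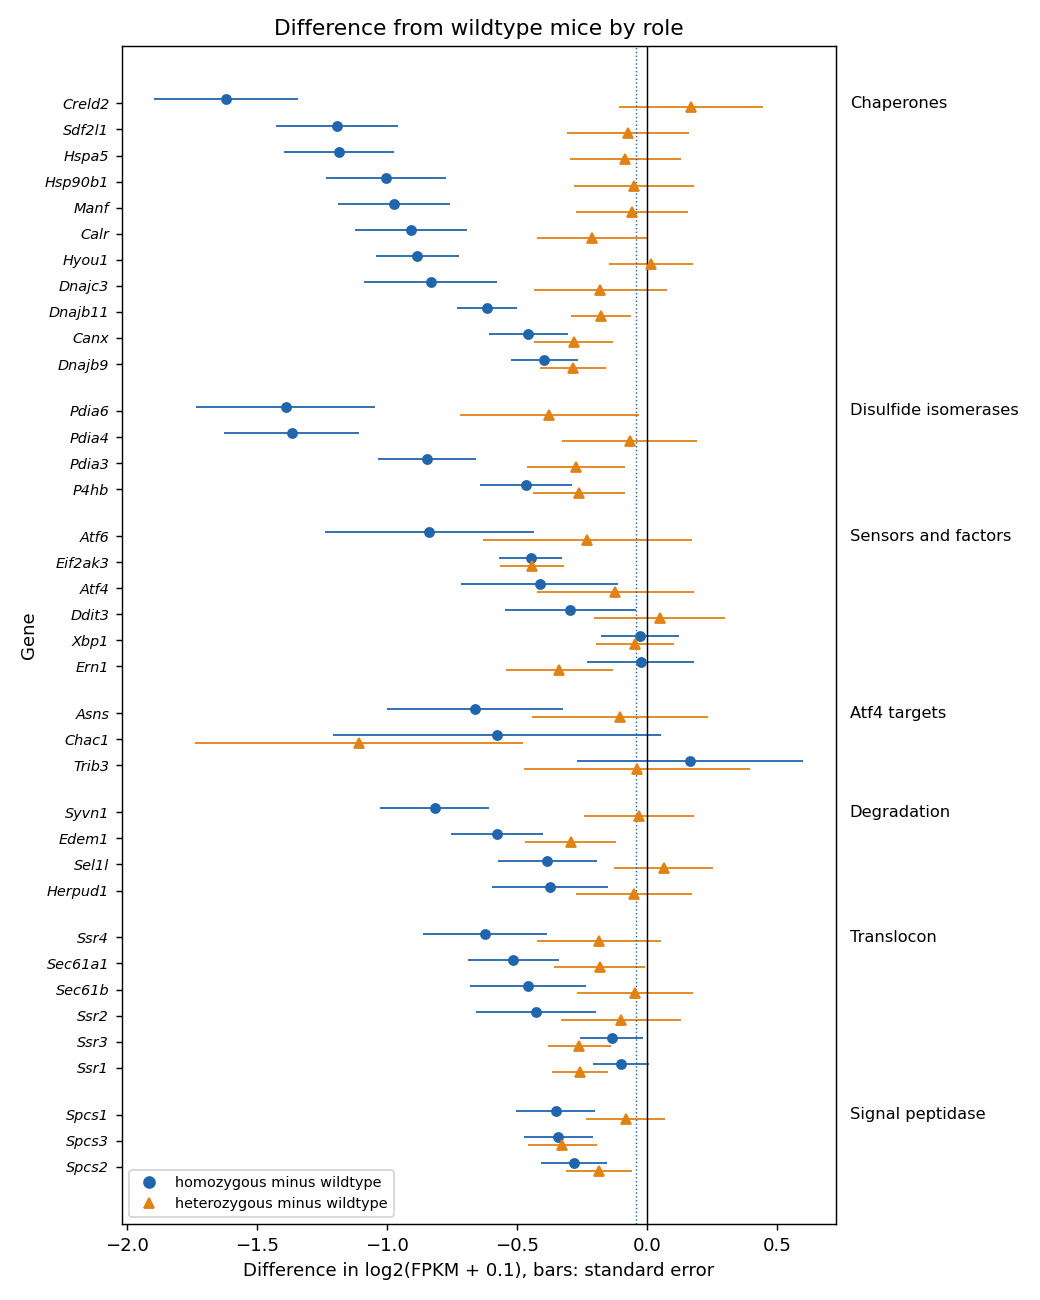
Difference from wildtype mice in log2(FPKM + 0.1) for the 37 genes by role, in homozygous (blue circles) and heterozygous (orange triangles) mice, with 2 mice per genotype and bars of 1 standard error from limma. The dotted line marks the homozygous median of all tested genes, -0.04, and Creld2 at -1.62 is farthest from it, while Xbp1 and Ern1 lie on it.

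The sensors Ern1, Eif2ak3 and Atf6 and the factor Ddit3 had lower levels than the 15 folding genes, while the levels of Xbp1 and Atf4 lay within the range of the chaperones. Eif2ak3 had an FPKM of 20.5 and 19.2 in wildtype, 14.7 and 14.5 in heterozygous and 13.5 and 15.6 in homozygous animals. It was thus lower by similar amounts with 1 and with 2 mutant alleles, with log2 differences from wildtype of -0.44 (adjusted p = 0.481 from limma) and -0.45 (adjusted p = 0.184 from limma). Eif2ak3 was the only gene of the 37 lower in heterozygous mice at an unadjusted p under 0.05, against 2.21% of all tested genes, and 0 were higher, against 4.66%. Ern1 had 22.3 and 29.6, 18.1 and 22.8, and 22.6 and 28.1 FPKM, so that wildtype and homozygous mice covered nearly the same range. Atf6 had 23.1 and 34.6, 24.1 and 24.0, and 10.4 and 23.8 FPKM. Only mouse 47 lay below the other genotypes, and the difference of -0.84 had a standard error of 0.40 and an adjusted p of 0.338 from limma. Without mouse 47 the log2 difference of Atf6 was -0.24.

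Xbp1, the factor activated by Ern1, had an FPKM of 168 and 150 in wildtype, 158 and 149 in heterozygous and 168 and 144 in homozygous animals. The groups overlapped fully, with a log2 difference between homozygous and wildtype mice of -0.03 (standard error 0.15, adjusted p = 0.944 from limma). FPKM per gene does not separate spliced from unspliced Xbp1 mRNA, so its activation was not measured. Atf4 had 108 and 196, 146 and 122, and 121 and 98.5 FPKM, and Ddit3, the factor it induces in prolonged stress, had 18.9 and 25.4, 27.2 and 18.9, and 20.5 and 15.6. The genotypes overlapped in both genes, with differences of -0.41 and -0.29 between homozygous and wildtype mice.

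The 3 targets of Atf4 varied widely within genotypes. Chac1, which degrades glutathione, had an FPKM of 7.50 in mouse 39 and 28.4 in mouse 41, both wildtype, 7.85 and 5.79 in the heterozygous pair and 12.9 and 7.41 in the homozygous pair. Trib3, a pseudokinase that restrains Atf4, had 2.94 and 7.04, 5.62 and 3.50, and 4.90 and 5.37 FPKM, and Asns, which makes asparagine, had 66.5 and 134, 101 and 76.4, and 60.0 and 59.5. Mouse 41 was the highest mouse for Chac1, Trib3 and Asns and for Atf4 itself, and the 2 wildtype mice differed by 3.79-fold, 2.39-fold, 2.02-fold and 1.81-fold in these genes. None of the 3 targets differed between genotypes at an unadjusted p under 0.05, and the log2 differences of homozygous from wildtype mice were -0.58, 0.17 and -0.66. The amino acid response element (TGATGNAA, searched on both strands) was found in the promoters of Chac1, Trib3 and Asns and in that of Herpud1, against 3.97% of all promoters. Without mouse 39, Chac1, Asns and Atf4 were lower in homozygous than in wildtype mice at an unadjusted p under 0.05, with differences of -1.53, -1.17 and -0.84 from the remaining wildtype mouse 41. Without mouse 41 the differences were 0.38, -0.16 and 0.01 in the same order, and none passed.

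**Figure D3:**
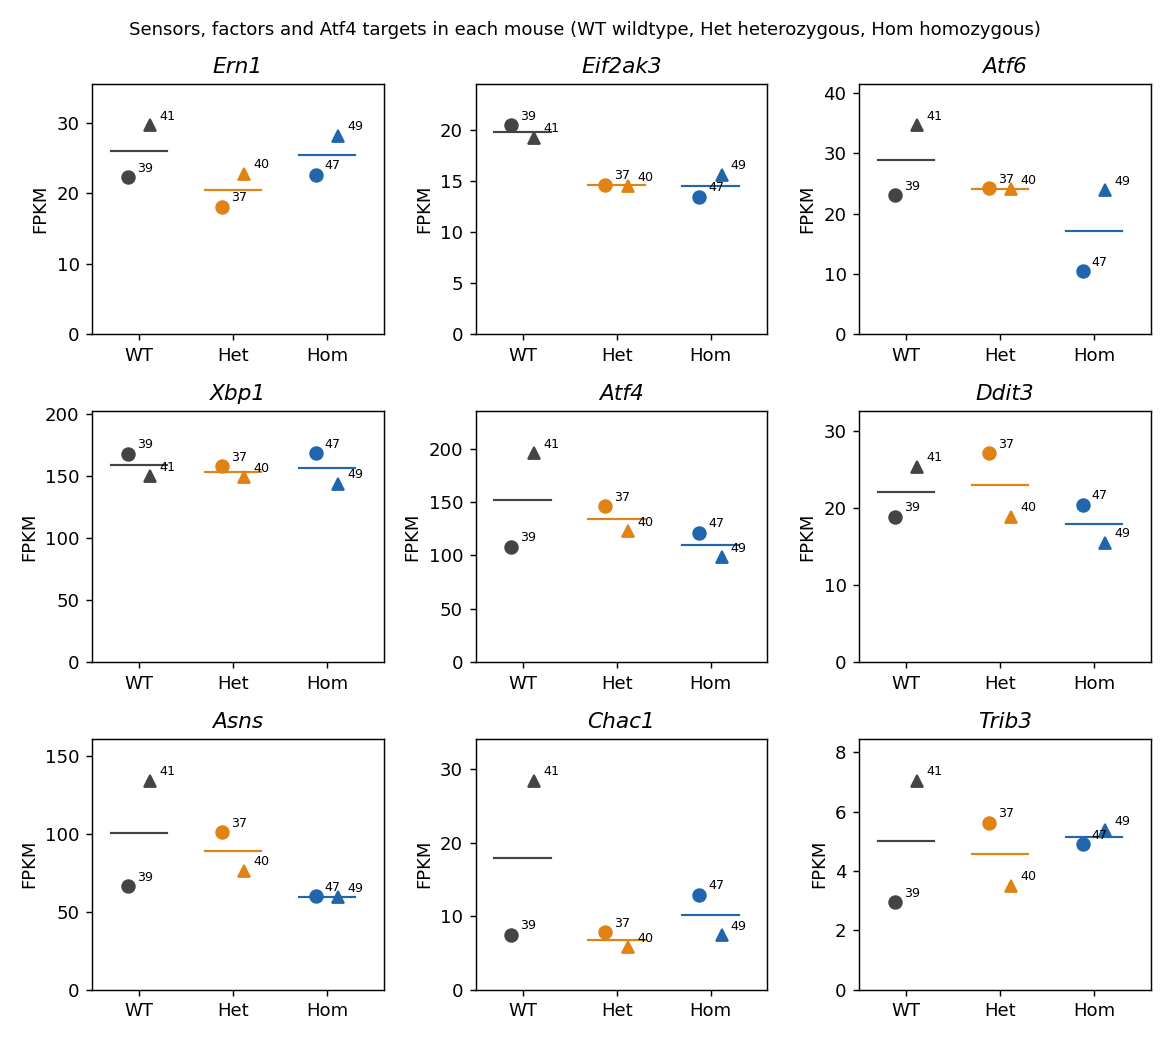
FPKM of the 6 sensors and transcription factors and of the 3 Atf4 targets in each mouse, with 1 panel and 1 linear axis from 0 per gene, points labelled by mouse and horizontal lines at the mean of the 2 mice of a genotype. Wildtype mouse 41 stands highest for Atf4, Asns, Chac1 and Trib3, Xbp1 overlaps between genotypes, and Eif2ak3 is lower in the heterozygous and the homozygous mice.

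The degradation genes, which draw misfolded proteins back to the cytosol, were lower in homozygous mice to differing degrees. Syvn1, the ubiquitin ligase of this route, had an FPKM of 90.8 and 90.8 in wildtype, 110 and 71.8 in heterozygous and 51.2 and 51.9 in homozygous animals. The homozygous mice were alike and lay below the others, with a log2 difference from wildtype of -0.82 (standard error 0.21, adjusted p = 0.174 from limma). Edem1, which sorts glycoproteins for degradation, had 59.2 and 60.6, 52.7 and 45.4, and 34.5 and 46.6 FPKM, and mouse 49 lay within the heterozygous range. Its difference was -0.58. Sel1l, the partner of Syvn1, had 57.1 and 64.6, 63.3 and 63.7, and 39.0 and 55.6 FPKM, and Herpud1, a scaffold of the ligase, had 247 and 231, 283 and 188, and 177 and 191. Neither passed an unadjusted p of 0.05, with differences of -0.38 and -0.37.

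The translocon and signal peptidase genes, through which new proteins enter the reticulum and lose their signal sequences, had smaller differences. Sec61a1, the channel subunit, had an FPKM of 232 and 263 in wildtype, 244 and 194 in heterozygous and 165 and 181 in homozygous animals. Ssr4, a subunit of the translocon-associated complex, had 471 and 636, 556 and 417, and 355 and 356 FPKM. Both were lower in homozygous mice at an unadjusted p under 0.05, with log2 differences of -0.51 and -0.62, and neither passed it without mouse 47. Sec61b (292 to 468 FPKM over the 6 mice) and Ssr2 (159 to 264) had differences of -0.46 and -0.43, and Ssr3 (133 to 163) and Ssr1 (19.3 to 24.4) of -0.14 and -0.10. In Ssr1 and Ssr3 the heterozygous mice were the lowest, with 19.3 and 20.1 FPKM for Ssr1 against 21.5 and 22.4 in homozygous mice. Of the signal peptidase subunits, Spcs3 had 79.7 and 84.0, 62.7 and 67.9, and 59.7 and 69.8 FPKM and a difference of -0.34 in homozygous and -0.33 in heterozygous mice. Spcs1 (173 to 240 FPKM) and Spcs2 (160 to 200 FPKM) had homozygous differences of -0.35 and -0.28 that did not pass an unadjusted p of 0.05.

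The 22 genes outside the chaperones and isomerases thus had a median difference of -0.40 between homozygous and wildtype mice, and 6 of them were lower at an unadjusted p under 0.05, against 9.32% of all tested genes. Within roles, the median was -0.91 for chaperones, -1.11 for disulfide isomerases, -0.35 for sensors and factors, -0.58 for Atf4 targets, -0.48 for degradation genes, -0.44 for the translocon and -0.34 for the signal peptidase. The median within-genotype standard deviation of log2 values was 0.22 for the 37 genes and 0.19 for all tested genes. The difference between these roles was not tested.

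Homozygous and heterozygous mice were compared to see what went with the second mutant allele, in a contrast that shares mice with the others. At an unadjusted p under 0.05, 13 of the 37 genes were lower in homozygous mice, against 4.42% of all tested genes, and 0 were higher, against 1.97%. They were 12 folding genes and Syvn1, and Canx, Dnajb9 and P4hb were the folding genes that did not pass. No gene of the 37 had an adjusted p under 0.05 in limma for this contrast, against 0.0145% of all tested genes, nor for heterozygous against wildtype mice, against 0%. In the limma F-test of the 3 genotypes, 15 of the 37 had an unadjusted p under 0.05, against 11.5%, and 0 an adjusted one, against 0.101%. The median difference between heterozygous and wildtype mice was -0.18 over the 37 genes and -0.01 over all tested genes.

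In 9 of the 37 genes both values of each genotype lay below both of the genotype with 1 mutant allele fewer, against 4.98% of all tested genes, and in 0 above them, against 3.85%. The 9 were Calr, Canx, Dnajb9, Dnajb11, Dnajc3, P4hb, Pdia3, Pdia6 and Spcs2. Of the 5 genes with the largest homozygous differences only Pdia6 was among them, since the heterozygous values of Creld2, Pdia4, Sdf2l1 and Hspa5 overlapped with the wildtype values. The count reached 22 without mouse 39 and 20 without mouse 37. With a single mouse left in a genotype, this order is easier to meet for any gene. The share over all tested genes was not computed in these settings, so these counts cannot be set against 4.98%.

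The homozygous mice differed between themselves. Mouse 47 was below mouse 49 in 27 of the 37 genes and in 12 of the 15 folding genes, against 6886 of all 13818 tested genes. The median difference of the folding genes from the wildtype mean was -1.11 in mouse 47 and -0.71 in mouse 49. In the heterozygous mice the same median was -0.11 in mouse 37 and -0.24 in mouse 40. The differences of mice 47 and 49 from the wildtype mean lay far apart for Atf6, at -1.43 and -0.24, for Pdia6, at -1.89 and -0.89, and, with mouse 49 the lower, for Chac1, at -0.18 and -0.97. Among the folding genes, Manf, Dnajb11 and P4hb were slightly lower in mouse 49. Mouse 49 had a level of Pbsn (7329 FPKM) somewhat below that of the heterozygous mice, at 8174 to 8360, and lower values of all 15 folding genes than these mice. Of the 10 tested secretory products, Pate4 included, 4 were lower in mouse 49 than in all 4 wildtype and heterozygous mice. The same held for 4056 of all 13818 tested genes. Whether the folding genes followed the secretory products was not tested.

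**Figure D4:**
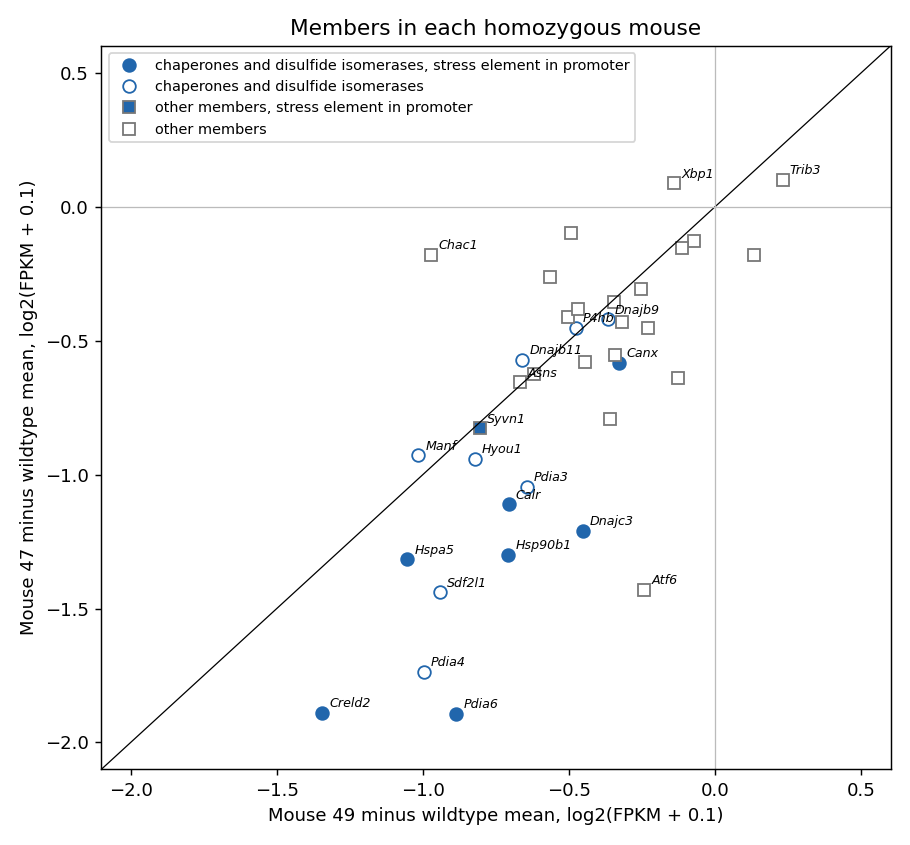
Difference of each homozygous mouse from the wildtype mean in log2(FPKM + 0.1), mouse 49 on the horizontal and mouse 47 on the vertical axis, for the 37 genes, with a diagonal of equal values. Circles are chaperones and disulfide isomerases, squares the other genes, and filled marks have the ER stress response element in the promoter, and 27 of the 37 genes lie below the diagonal.

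**Figure D5:**
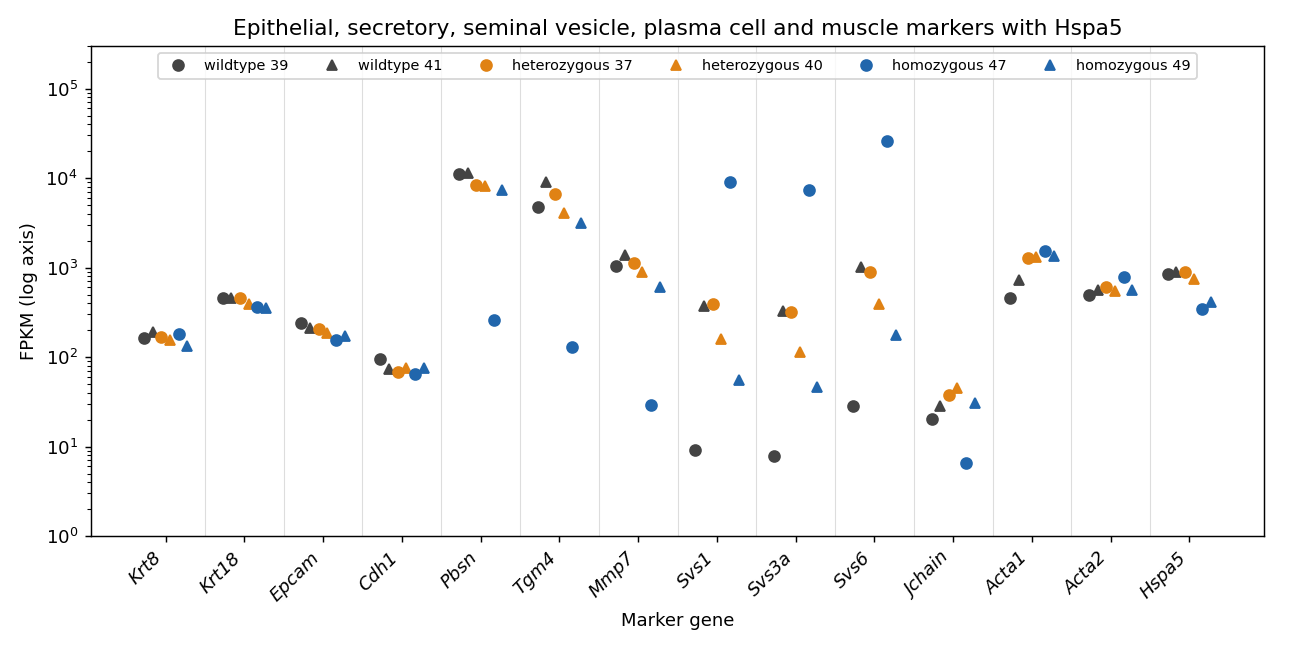
FPKM (log axis) of epithelial, secretory, seminal vesicle, plasma cell and muscle markers with Hspa5 in each mouse, 1 point per mouse. Mouse 47 (blue circle) is the lowest for Pbsn, Tgm4, Mmp7 and Jchain and the highest for Svs1, Svs3a and Svs6, while the 6 mice lie close together for Krt8, Krt18, Epcam and Cdh1.

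Other genes of the same pathways were examined in homozygous against wildtype mice, and none had an adjusted p under 0.05 in limma. Their counts stand against 9.32% of all tested genes lower and 8.65% higher at an unadjusted p under 0.05. Of 19 tested further folding enzymes, 10 were lower and 1 higher in homozygous than in wildtype mice at an unadjusted p under 0.05, with a median log2 difference of -0.38. The clearest by the F-test were Fkbp2, a prolyl isomerase, with -0.67, and Erp29, a chaperone of secretion, with -0.74. Of 15 further degradation genes, 8 were lower and 1 higher (median -0.32), led by Derl3 and by Edem2 with -0.77. Of 11 oligosaccharyltransferase genes, 5 were lower and 0 higher (median -0.39), led by Tusc3 with -0.45 and Rpn2 with -0.63. The smaller medians were -0.29 for 15 further translocation genes (4 lower, 0 higher, led by Srp14 and Srp72 of the signal recognition particle, with -0.72 and -0.44), -0.28 for 24 genes of vesicle transport (8 lower, 0 higher, led by Copb2 and Sec23b, with -0.35 and -0.37) and -0.26 for 13 further sensors and regulators (3 lower, 0 higher, led by Atf6b and Creb3l1, with -0.60 and -0.77). Of 25 further genes of the Atf4 response, 4 were lower and 1 higher (median -0.26), and the clearest were Phgdh of serine synthesis, with -0.80, and the lipoprotein receptor Vldlr, with 0.91.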

How the data were processed

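RNA of 6 prostates was measured, and mice were grouped by the genotype in the submitters' labels. The authors made stranded mRNA libraries, and the submitters' processing notes name HISAT, Cufflinks and Cuffnorm on mm10 (GRCm38), with versions and annotation not given in the sources used here. The authors deposited FPKM per gene for each mouse, and fragment counts are not part of these values, so the depth behind each value is unknown. From them, log2(FPKM + 0.1) was computed and genes whose FPKM averaged 1 or more were fitted with limma 3.58.1 in R 4.3.3 (genotype only, empirical Bayes with an intensity trend, 2.77 prior and 3 residual degrees of freedom). Contrasts and an F-test were adjusted by Benjamini and Hochberg over all tested genes, and the fit was tested on simulated data. The differences understate the change of low genes. Reads shared with pseudogenes could not be examined.

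The genes and the lists of related genes and cell type markers were chosen with earlier results of these data known. All 37 genes are named, with, from each related list, the 2 genes with the lowest F-test p. Of 124 symbols with several identifiers, that with the highest mean was used, and none of the 37 was among them. Promoters came from RefSeq for GRCm38.p6, and in 28 of 31 the end was found in an annotated transcript on the same strand. Other pseudocounts, filters, scalings, variance priors and the omission of each mouse were tried.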

Additional observations from a re-analysis of the deposited data

How the results depend on the processing

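In all settings 0 of the 37 genes had an adjusted p under 0.05 in limma in any contrast. No difference of the 37 genes from wildtype mice called at an unadjusted p under 0.05 reversed. Reversal was not examined for the other named genes or for homozygous against heterozygous mice. Leaving out each mouse in turn, in which the remaining mouse of a genotype is assumed to vary like the others, gave 13 to 20 genes lower in homozygous than in wildtype mice (21 with all mice; 13 without mouse 47), 0 to 2 lower in heterozygous than in wildtype mice (0 without mouse 40) and 9 to 22 ordered downwards by allele number. The downward order is easier to meet for any gene with a single mouse left in a genotype, and its share over all tested genes was not computed there. The 1 gene lower in heterozygous mice, Eif2ak3, became 2 with a pseudocount of 1 or 0.01, a mean FPKM of at least 5, median scaling, quantile normalization or summed identifiers, and 3 without a filter on low values. Scaling by Krt8, Krt18, Epcam and Cdh1, chosen after seeing the data, gave 12 genes lower in homozygous than in wildtype mice with a median difference of -0.20, 0 lower in heterozygous mice, 1 higher in homozygous than in heterozygous mice, 9 at an unadjusted F-test p under 0.05 (15 before), 3 ordered downwards and 1 upwards. The cause was not tested. Quantile normalization left 16 genes lower in homozygous mice, 11 of them folding genes. No paired analysis was possible because the groups share no replicate numbers. With 2 mice per genotype, a difference of moderate size can go uncalled.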

Other observations

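The high values of wildtype mouse 41 in the Atf4 branch extended to further genes of the amino acid response. Of 25 tested genes of this list outside the 37, 23 were higher in mouse 41 than in wildtype mouse 39 and 19 had their highest value of the 6 mice in mouse 41, with a median ratio of 1.64 between both mice. Of all 13818 tested genes, 7875 were higher in mouse 41 than in mouse 39. The share of all tested genes with their highest value in mouse 41 was not computed. The ratio was highest for Psat1, an enzyme of serine synthesis, at 2.69, with an FPKM of 22.8 in mouse 39, 61.3 in mouse 41 and 26.2 to 37.7 in the other mice. Nupr1 and Eif4ebp1 were lower in mouse 41, with ratios of 0.355 and 0.691.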
